A study of Schizosaccharomyces pombe with 3 samples.

Results

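The genes inv1 and agl1 encode the sugar-cleaving enzymes examined here, the invertase and the maltase of Schizosaccharomyces pombe. They were found by name and gene ID in the first sheet of each of the 3 workbooks, and are 2 of the 444 genes that those sheets list. Wild type cells of strain 972h- were grown to mid-log phase in Synthetic Dextrose (SD) medium that held glucose from the start at 3% (T1), 5% (T2) or 8% (T3). RNAs of 3 replicates per concentration were pooled before sequencing, so each concentration is 1 library, grown from a single colony, and no difference between samples has a replicate check or a test. The comparison asks how the RNA levels of both genes differ between the glucose concentrations. All 3 media held glucose, and no sample without glucose or with sucrose or maltose is included.

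Invertase is secreted and splits sucrose outside the cell into glucose and fructose. Agl1 is an alpha-glucosidase that cuts maltose into glucose. Both genes serve the use of alternative carbon sources. Yeasts keep many such genes low while glucose is plentiful, a control known as glucose repression. In fission yeast the zinc finger repressor Scr1 is known to act on inv1.

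The depth implied by the relation between counts, FPKM and gene length in the tables was 5744764 fragments for T1, 5888032 for T2 and 5819044 for T3. These are values fitted over listed genes, and they lie well below the numbers of reads mapped to genes that the study reports. The tables hold only genes that the authors called different in at least 1 comparison. Values exist in all 3 libraries for 177 genes, and 173 of these have counts above 0 in each. Genes that the authors did not call are not in the tables and were not analysed. All 87 genes listed for T2 against T1, all 367 for T3 against T1 and all 181 for T3 against T2 were at least 2-fold apart in that comparison. For inv1 and agl1, listed in all 3, a difference of at least 2-fold was therefore fixed by being listed, while its direction and its size beyond that were not. The strain label could not be checked fully. A mating-type M entry, mat3-Mc in the current annotation, had 455.36, 1.2 and 0 expected counts in T1, T2 and T3, but a gene with another copy can lose its reads to that copy, and whether the libraries differ in mating type was not tested.

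In the RefSeq annotation of assembly ASM294v3 inv1 (SPCC191.11) lies on the plus strand of chromosome III and agl1 (SPAPB24D3.10c) on the minus strand of chromosome I. Each has a coding sequence in 1 exon, of 1746 bases for inv1 and 2910 bases for agl1. The gene models behind the deposited values, NM_001023290.2 and NM_001019422.2, are older versions, and the sources used here do not name the build that the authors aligned to. For inv1 the deposited length is 2772 bases against 2731 in ASM294v3. For agl1 it is 4149 bases against 3073, and the ASM294v3 transcript is marked as incomplete at its start codon.

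Both genes can be told apart in sequence from a few other genes annotated with the same kind of enzyme. These were picked beforehand, and no search for the genes closest in sequence was made. The longest identical run between the coding sequences of inv1 and inv2, another beta-fructofuranosidase gene, was 11 bases. Between agl1 and the alpha-glucosidase genes gto2, gto1 and mal1 the longest runs were 18, 17 and 12 bases. The longest run of each gene is shown, since it bears on whether reads could be divided between genes.
inv1 and inv2: atgaatgatcc
agl1 and gto2: tttgggatgctcccttat
Expected counts of inv1 and agl1 were whole numbers in all 3 libraries, as they are when no reads are divided among genes.

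The upstream sequences of inv1 and agl1 differed in a repressor-type motif. In Saccharomyces cerevisiae the glucose repressor Mig1, a zinc finger protein related to Scr1, binds sites spelled GCGGGG and the variants GTGGGG as well as CCGGGG and also CTGGGG. These 4 spellings were searched on both strands in the 1500 bases before the start codon, and 29.0% of 5123 protein-coding genes held at least 1 match. The agl1 window held 7 matches, and no other gene of the 5123 had as many. At least 6 matches were found in 5 genes and at least 3 in 76 genes, 1.48% of the total. The inv1 window held no match. Of its bases the last 872 are annotated as transcript leader, but the 1036 bases between the inv1 transcript start and the gene before it held no match either. A match is not a shown binding site, and the absence of these letters says nothing of other sites.

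Of the 7 matches of agl1, 6 are printed with 12 bases on either side, 5′ to 3′ on the agl1 strand, which is the minus strand of ASM294v3. Capitals mark the motif. CCGGGG is read on the agl1 strand, and CCCCAC is GTGGGG on the opposite strand. Since the deposited agl1 model is 1076 bases longer than the ASM294v3 transcript, the nearer matches may lie within its transcribed leader.
agl1, 1393 bases before the start codon, chrI:2972364-2972393: aaagcgcaaagtCCGGGGttcagatgatca
agl1, 1257 bases before, chrI:2972228-2972257: gacactattcttCCCCACagtgtgaacttg
agl1, 1153 bases before, chrI:2972124-2972153: gaatttcgctttCCCCACccttacgtcgaa
agl1, 765 bases before, chrI:2971736-2971765: tttttgtcctccCCCCACatccgccttagt
agl1, 704 bases before, chrI:2971675-2971704: gattgattccatCCCCACgagaaaatcgat
agl1, 453 bases before, chrI:2971424-2971453: caaaagtttctcCCCCACttttataaggtt
The distance is counted to the first base of the motif. Among those shown, the spelling GTGGGG made up all but the farthest match.

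The 250 bases before the annotated inv1 transcript start, chrIII:1723184-1723433 on the plus strand, are shown as well. No Mig1-type match lies in these 250 bases, while 5.80% of the 5123 windows of that length hold at least 1. The TATA box spelling TATAAA, which 44.4% hold, is absent too, so no base is in capitals. Only that spelling was searched, and others, such as the tatatata near the end of the bases shown, were not assessed. These 250 bases of inv1 give no contrast to agl1, whose matches were searched in the 1500 bases before the start codon. Of the 6 agl1 matches printed, the nearest starts 453 bases before that codon, so a 250-base window there would hold none of them.
inv1: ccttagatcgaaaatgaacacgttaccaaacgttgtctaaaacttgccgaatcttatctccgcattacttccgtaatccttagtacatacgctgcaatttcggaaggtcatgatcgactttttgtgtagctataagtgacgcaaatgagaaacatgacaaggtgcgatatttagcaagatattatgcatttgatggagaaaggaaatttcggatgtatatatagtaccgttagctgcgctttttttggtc

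Expression of inv1 was highest at 5% glucose and lowest at 8%. The level, in fragments scaled by gene length and library size (FPKM), was 126.62 in T1 on 1971 expected counts (95% exact Poisson interval 121 to 132 FPKM). It was 272.09 FPKM in T2 on 4363 counts (264 to 280). In T3 it was 36.96 FPKM on 585 counts (34.0 to 40.1). The intervals of the 3 libraries do not overlap, which at these counts follows from being listed as at least 2-fold apart. The intervals stand for counting error alone, and the spread between cultures is not known.

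The agl1 RNA had the same order of libraries with a wider range. Its level was 67.42 FPKM in T1 on 1583 expected counts (95% exact Poisson interval 64.1 to 70.8 FPKM). In T2 it reached 300.53 FPKM on 7256 counts (294 to 308). In T3 it dropped to 15.81 FPKM on 377 counts (14.3 to 17.5). Again no interval met that of another library, which being listed fixed at these counts. Relative to T2, the T1 level was 46.5% for inv1 and 22.4% for agl1, and the T3 level was 13.6% for inv1 and 5.26% for agl1. Together both transcripts took 0.0619% of the implied fragments in T1, 0.197% in T2 and 0.0165% in T3.

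**Figure D1:**
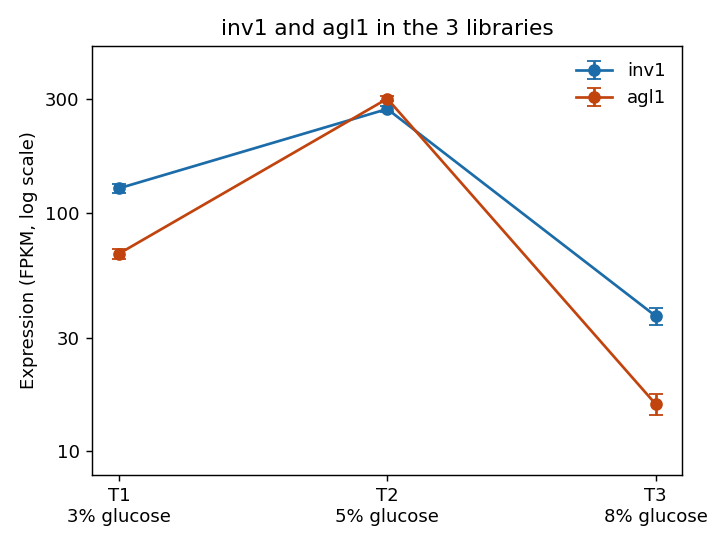
Level of inv1 and agl1 in FPKM on a log axis in the T1 (3% glucose), T2 (5%) and T3 (8%) libraries, 1 library each. Bars are 95% exact Poisson intervals of the counts, lines join the points of a gene, and both genes are highest in T2 and lowest in T3, with agl1 below inv1 in T1 and T3 and above it in T2.

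Which of the 2 genes had the higher level per length depended on the library. The inv1 level was 1.88-fold that of agl1 in T1 (95% interval 1.76 to 2.01) and 2.34-fold in T3 (2.05 to 2.67). In T2 it was agl1 that stood higher, 1.1-fold above inv1 (1.06 to 1.15). With transcript lengths of ASM294v3 in place of the deposited lengths the order of the genes was the same in all 3 libraries, at 1.40-fold for inv1 over agl1 in T1, 1.75-fold in T3 and 1.48-fold for agl1 over inv1 in T2.

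From 3% to 5% glucose both genes were higher in T2. For inv1 the ratio of FPKM values was 2.15 (95% exact Clopper-Pearson interval from the counts of both libraries, 2.04 to 2.27). For agl1 it was 4.46 (4.22 to 4.71). Of the 198 genes with values in T1 and T2, 65 had a level in T2 at least 2-fold above that in T1, 32.8%, so a place on that side is common among the listed genes. At least 4-fold higher levels, which agl1 reached and inv1 did not, were found for 15 genes, 7.58%. Among the 173 genes with counts in all libraries agl1 had the 11th highest and inv1 the 39th highest ratio of T2 to T1.

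At 8% glucose both genes stood below both other libraries. Against T1 the level in T3 was 3.43-fold lower for inv1 (95% interval 3.12 to 3.76) and 4.26-fold lower for agl1 (3.81 to 4.78). At least 2-fold lower levels were found for 132 of 383 genes with values in T1 and T3, 34.5%, and at least 4-fold lower levels for 23 of them, 6.01%. This comparison does not use the T2 library. Against T2 the level in T3 was 7.36-fold lower for inv1 (6.75 to 8.04) and 19.0-fold lower for agl1 (17.1 to 21.1). Of 217 genes with values in T2 and T3, 101 were at least 2-fold lower, 46.5%, and 28 were at least 4-fold lower, 12.9%. The T3 to T2 ratio of agl1 was the 4th lowest and that of inv1 the 9th lowest among the 173 genes. The comparisons share libraries, and a value of T2 that was high by chance would raise the ratio to T1 and lower the ratio of T3 to T2 at the same time.

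**Figure D2:**
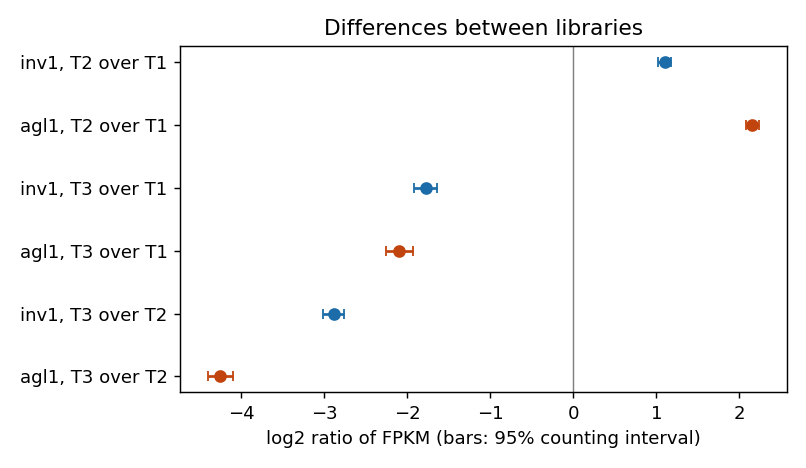
Log2 ratio of FPKM values of inv1 and agl1 for T2 over T1, T3 over T1 and T3 over T2. Points are the ratios and bars the 95% counting intervals, and agl1 lies farther from 0 than inv1 in each comparison.

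The agl1 level differed more between libraries than the inv1 level. Both genes were counted in the same libraries, so library size cancels when their changes are compared. From T1 to T2 the ratio of agl1 was 2.07 times that of inv1 (exact conditional 95% interval 1.92 to 2.24). From T2 to T3 the decrease was 2.58 times as large for agl1 as for inv1 (2.25 to 2.96). Between T1 and T3, where T2 is not used, the decrease was 1.25 times as large for agl1 (1.08 to 1.45). These intervals cover counting error only. Without replicate libraries the spread of the 2 genes between cultures is not known, and the last of these differences is small beside the others.

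The order T2, T1, T3 was shared with other genes. Of the 173 genes with counts in each library 41 were highest in T2 and lowest in T3. At least 2-fold steps both from T1 up to T2 and from T1 down to T3 were found for 7 of the 173 genes, 4.05%. These were inv1, agl1, ght1, rsv1, tgd1, mug114 and SPCC191.10, and 14 genes in all were listed in each of the 3 tables. For those 14, inv1 and agl1 among them, differences of at least 2-fold were fixed by being listed, and only the directions were free. Most of the 173 genes are not listed in all 3, so the 4.05% says little of how rare the pattern is. Of the 7, ght1 encodes a hexose transporter and has fractional counts, so part of its reads was divided among similar genes. The transcription factor Rsv1 is related to Scr1, and tgd1 (SPBPB2B2.11) encodes a predicted nucleotide-sugar dehydratase.

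The 5 genes most like inv1, by the root mean square difference of log2 T2 over T1 and log2 T3 over T2 across the 3 libraries, were rsv1 (0.13), gal10 (0.17), tgd1 (0.19), SPCC1529.01 (0.24) and SPCC794.01c (0.29). The rsv1 level was 12.93 FPKM in T1, 31.42 in T2 and 4.42 in T3, far below that of inv1 in each library. SPCC1529.01 is annotated as a transporter with 32.91 FPKM in T1, 60.53 in T2 and 9.76 in T3. SPCC794.01c, a predicted glucose-6-phosphate 1-dehydrogenase gene, had 203.5, 352.94 and 57.96 FPKM.

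No gene lay as close to agl1. The 5 most like it were mug114 (0.63), ght1 (0.78), SPCC191.10 (0.84), gld1 (0.95) and rsv1 (1.18), and inv1 followed as the 6th of 172 genes (1.22). Seen from inv1, agl1 was the 41st. The gene mug114, whose product has no assigned role in the annotation, had 72.12 FPKM in T2 against 11.13 FPKM in T1 and 2.32 FPKM in T3. The glycerol dehydrogenase gene gld1 had 224.22, 411.27 and 16.25 FPKM.

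**Figure D3:**
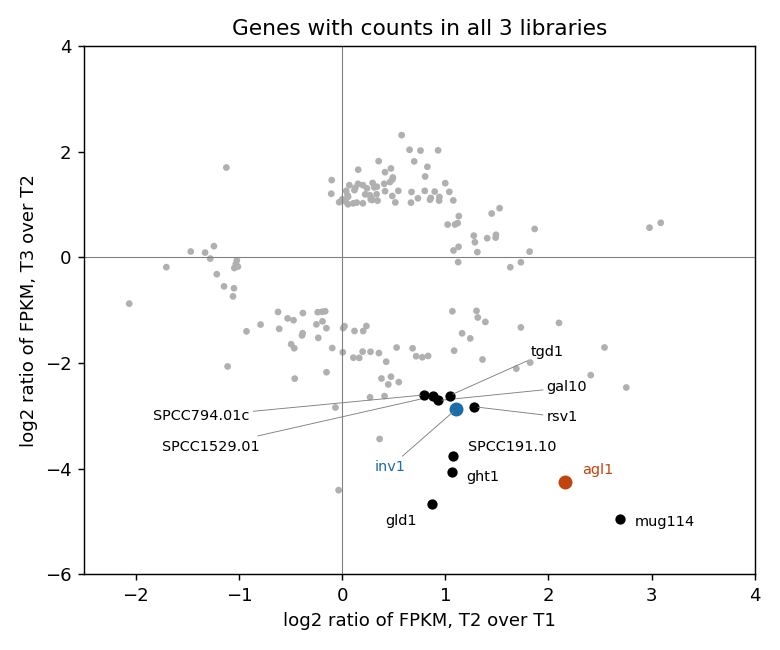
Each point is 1 of the 173 genes with counts in all libraries, placed by its log2 ratio of T2 over T1 (horizontal) and of T3 over T2 (vertical); 4 genes lie outside the axes. inv1 sits in a group with rsv1, gal10, tgd1, SPCC1529.01 and SPCC794.01c, whereas agl1 lies apart at the lower right, with mug114 the nearest gene.

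Several genes of these patterns also held many Mig1-type matches in the 1500 bases before the start codon. Besides agl1 with 7, gld1, SPCC1529.01 and SPCC794.01c held 6 each, which makes 4 of the 5 genes in the genome with at least 6. Whether windows of different genes overlap, so that a match is counted for more than 1 gene, was not checked. The windows of gal10, ght1 and rsv1 held 4, 3 and 3 matches, those of tgd1 and SPCC191.10 held 1 each, and that of mug114 held none, as that of inv1. These genes were chosen by their levels, so the counts are a description.

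The gene next to inv1 had the same order of levels. SPCC191.10, an uncharacterized gene, lies 1036 bases upstream of inv1 on the same strand. It was scarce, with 5.14 FPKM on 25 counts in T1, 10.86 FPKM on 55 counts in T2 and 0.80 FPKM on 4 counts in T3. The decrease from T2 to T3 was 13.6-fold, with a wide interval of 5.01 to 51.6. From T1 to T2 it was 2.11-fold higher (1.29 to 3.54), which holds the inv1 ratio of that step. Whether RNA that runs between the neighbours adds to either count was not tested. The downstream neighbour of inv1, bdf1, and both neighbours of agl1, pdr1 and SPAPB1A11.06, have no value here.

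Few other genes for such sugars are in the tables. Among 9 genes for the cleavage and uptake of sucrose, maltose and related sugars, only 4 had any value, namely inv1, agl1, mal1 and sut1. The gene mal1, which encodes a further maltase, had 34.31 FPKM on 804 counts in T1 and 74.91 FPKM on 1805 counts in T2. It was 2.18-fold higher in T2 (95% interval 2.01 to 2.38), close to the ratio of inv1. It has no T3 value because the authors did not call it different in T3 against T1 or T3 against T2, unlike inv1 and agl1. The likeness to inv1 is thus for the step from T1 to T2 alone. The sucrose and maltose symporter gene sut1 had 77.7 FPKM in T2 and 38.65 FPKM in T3, a 2.01-fold decrease (1.83 to 2.21). The authors did not call it different in T2 against T1 or T3 against T1, so it has no T1 value. Of these genes all 3 with values in T1 and T2 were at least 2-fold higher in T2, against 32.8% of all 198 genes, with a median log2 ratio of 1.13 against 0.46. In T3 against T2 3 of 3 were at least 2-fold lower, against 46.5% of all 217 genes, with a median log2 ratio of -2.88 against -0.19. The genes inv1 and agl1 are 2 of the 3 in each count, joined by mal1 in the first and sut1 in the second. The median of -2.88 is the ratio of inv1 itself, and that of 1.13 is the ratio of mal1. The second count leaves out mal1, which was not called in T3 against T2. In both counts each gene is listed for that comparison, so only the direction was free. The 32.8% and 46.5% also cover genes not listed for it, so they are not like shares. Of the 198 genes 87 are listed for T2 against T1, and 65 of the 198 were at least 2-fold higher. Of the 217 genes 181 are listed for T3 against T2, and 101 of the 217 were at least 2-fold lower. In T3 against T1, inv1 and agl1 alone had values, and both were lower. The genes inv2, gto1 and gto2, the melibiase gene mel1 and the trehalase gene ntp1 have no value here.

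Glucose, a product of both enzymes, and fructose, a product of invertase alone, enter the cell through hexose transporters and are then phosphorylated. In a list of 10 genes for these steps, 5 had values, and in T3 against T2 all 5 (ght1, ght3, ght4, ght5 and hxk2) were at least 2-fold lower, with a median log2 ratio of -1.62. Over all 217 genes 46.5% were at least 2-fold lower, and the median was -0.19. All 5 are listed for that comparison, which fixed the size of 2-fold but not the direction. The 46.5% is not a like share, since only 181 of the 217 genes are listed for it, and 101 of the 217 were lower. In T2 against T1, 3 of 4 (ght1, ght3 and ght4) were at least 2-fold higher, against 32.8% of all 198 genes. Here too the size of 2-fold was fixed for any gene listed for that comparison, and only the direction was free. In T3 against T1, 2 of 4 were at least 2-fold lower, which is not far from the 34.5% of all 383 genes. The log2 ratio of ght1 for T3 over T2 was -4.07 (95% interval -4.32 to -3.83), which overlaps that of agl1 at -4.25 (-4.40 to -4.10), while the decreases of ght3 and ght4 from T2 to T3 were 2.71-fold and 2.90-fold. The ght3 and ght4 levels in T3 were near those in T1, at 28.85 against 34.95 FPKM for ght3 and 75.04 against 92.03 FPKM for ght4, unlike those of inv1 and agl1.

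**Figure D4:**
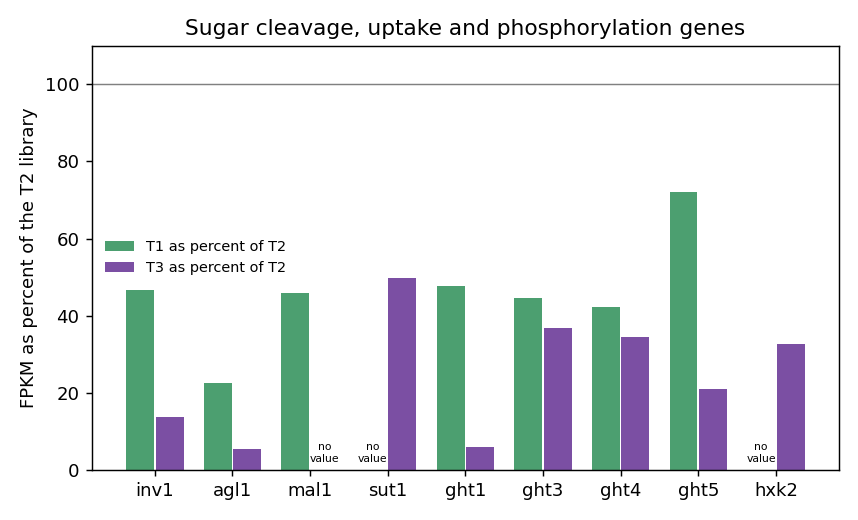
FPKM in T1 and in T3 as a percent of the T2 library, for inv1, agl1, mal1, sut1, 4 ght hexose transporter genes and the hexokinase gene hxk2, 1 library per concentration. Every bar lies below 100, and the T3 bars of agl1 (5.26%), ght1 (5.95%) and inv1 (13.6%) are the lowest.

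Polysaccharide-cleaving enzymes are nearly absent from the tables. None of 6 alpha-amylase family genes is in the tables. Of 13 genes of cell wall and endoplasmic reticulum glucosidases, only eng2, an endoglucanase gene, had values. It differed in direction from inv1 and agl1, with 14.01 FPKM in T1 and 37.51 FPKM in T3, 2.68-fold higher (95% interval 2.29 to 3.14). Its log2 ratio of 1.42 lies near the median of 1.1 over all 383 genes of that comparison, and 1 gene says nothing of the family.

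Of the genes of glucose repression and glucose signalling few are in the tables. In a list of 16, 5 had values, each of them lower in T3 than in the other libraries it has values for. In T3 against T1 4 of 4 were at least 2-fold lower, which are scr1, rsv1, cgs1 and git11, against 34.5% of all 383 genes, with a median log2 ratio of -1.32 against 1.1. All 4 are listed for that comparison, and scr1, cgs1 and git11 have values through it alone, so the size of 2-fold was fixed and only the direction was free. The repressor gene scr1 had 85.13 FPKM in T1 and 40.04 FPKM in T3. The gene cgs1, for the regulatory subunit of cAMP-dependent protein kinase, was 3.66-fold lower (95% interval 3.17 to 4.24). The catalytic subunit gene pka1 had 220.12 FPKM in T2 and 101.66 FPKM in T3, a 2.17-fold decrease (2.03 to 2.32). The repressor gene and its target inv1 were both lower in T3 than in T1 at the RNA level.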

How the data were processed

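Polyadenylated RNA was sequenced in paired ends, 1 library per glucose concentration. By the study's methods, reads were cleaned with SOAPnuke 1.5.6 and mapped by BWA 0.7.12 to the genome and by Bowtie 1.1.2 to genes, from which the authors obtained expected counts and FPKM with RSEM 1.2.25. The deposited tables hold expected counts, which need not be whole, and FPKM values for genes called with a Poisson method and NOIseq 2.14.1. A count of 0 is given as 0.001 FPKM in the deposited tables and was treated as 0. The columns of log2 ratios, p-values and FDR of the authors were not used, nor were the second sheets, which repeat rows of the first.

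Tables were joined by gene ID, and 0 values differed between them. Of the 444 genes, 386 were named through ASM294v3 and 28 by the description in the files, and 30 remained unnamed, with 0 protein matches to an invertase, glucosidase or amylase among them. Ratios are of FPKM values. Intervals (95%) are Clopper-Pearson for ratios, Poisson for levels and exact conditional for ratios of ratios, all from rounded counts. Those for ratios and for ratios of ratios were tried on counts simulated with counting error alone. That trial says nothing of the spread between cultures. A count of 0 was set to a floor of 3 counts in the numbers of genes past a fold. Calculations ran in scipy 1.17.1, pandas 2.3.3 and numpy 2.4.6 under Python 3.11.15. Named genes were inv1 and agl1, the 5 genes most like each, members of 5 gene lists with a value, and direct neighbours. The genes and lists were chosen with earlier results of these data known. Alternatives were another scaling, a pseudocount of 1 FPKM, folds of 4, a minimum of 10 FPKM and another measure of likeness. Without replicate libraries no p-value was computed. The sequence around 1 of the agl1 motif matches is not reported here.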

Additional observations from a re-analysis of the deposited data

How the results depend on the processing

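The direction of all 6 ratios of inv1 and agl1 was kept, each within its counting interval, under 3 alternatives. These were counts scaled by gene-mapped reads, unscaled counts and a pseudocount of 1 FPKM. The 3 ratios of their changes, in which scaling cancels, were checked with the pseudocount alone and were kept as well. Together these made 21 values. The implied depths of the 3 libraries were close, so scaling could move the ratios little. The numbers of genes used as background moved with the fold, from 65 to 15 for genes higher in T2 than in T1, from 132 to 23 for genes lower in T3 than in T1 and from 101 to 28 for genes lower in T3 than in T2 when at least 4-fold was asked. With only genes that have values in all libraries, a setting chosen after seeing the data, 75 genes were lower in T3 than in T1. The 5 genes most like inv1 were the same under a minimum of 10 FPKM and under the largest difference over the 3 log2 ratios, and of those most like agl1 5 and 4 were shared. With the transcript lengths of ASM294v3, also chosen after seeing the data, the inv1 level over the agl1 level was 1.40 in T1, 0.677 in T2 and 1.75 in T3, against 1.88, 0.905 and 2.34 with the deposited lengths. No paired analysis was possible because each concentration is 1 pooled library, and no library could be left out. Counting error limited SPCC191.10, with 4 counts in T3, far more than inv1 and agl1.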
